A study of Mus musculus with 42 samples.

Results

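Spleen RNA of *Tug1*-/- mice was compared with that of wild-type mice over the 26653 genes that the deposited table lists for this tissue, all of which were taken as members. The spleen is 1 of 7 tissues with samples in the series, and 6 of its 42 samples are spleens, 3 wild-type and 3 knockout. All were from males of the *Tug1*_tm1.1Vlcg strain on a C57BL/6J background (N3, without the Neo cassette). Wild-type mice carried 2 intact *Tug1* alleles, and in knockout mice *lacZ* had replaced the *Tug1* gene on both chromosomes. The deletion is present in every cell from the germline on, so a difference in the spleen need not start there. The labels do not give the age of the mice. The table holds 1 value per genotype, which the authors made from the 3 samples, in FPKM, a level scaled by transcript length and by library size. No value per mouse was available, so no spread between mice, error or test could be given for any difference, and 1 mouse of the 3 could carry any of them. The depth of the samples is unknown.

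In mice the spleen is both a lymphoid organ and a site of blood formation. Its white pulp holds B and T cells, while its red pulp filters blood, where macrophages take up old red cells, and keeps erythroid, megakaryocyte and granulocyte precursors throughout adult life. Red cell precursors divide, build hemoglobin and a spectrin-based membrane, and then lose their nuclei. Neutrophil precursors fill their granules in order, with primary granule proteases first and secondary granule proteins later.

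Changes were computed as log2((KO + 0.1)/(WT + 0.1)). Among the 12618 genes with a mean of at least 1 FPKM, 620 were more than 1.5 times higher in knockout spleen (4.91%) and 139 more than 1.5 times lower (1.1%). The median change was -0.02, and 78.9% of these genes lay within 1.2 times of equality. Of the higher genes, 118 belonged to the 9 lists of erythroid, megakaryocyte and platelet, neutrophil and cell cycle genes, 29 were pancreatic acinar genes, and 444 were in none of the 40 lists used. *Tug1* itself (chr11:3639785-3649673 in GENCODE vM21 on GRCm38) had 22.7 FPKM in wild-type spleen and was at 0.0174 FPKM in the knockout. *lacZ* was listed at 0 in wild-type and had 0.434 FPKM in knockout spleen. Both pooled values go with the labels. Of the 8 genes of the *Tug1* locus list with a mean of at least 1 FPKM, 4 were higher and 2 lower, and the lower ones were *Tug1* and *Morc2a*, whose annotated start lies inside *Tug1* on the other strand.

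**Figure D1:**
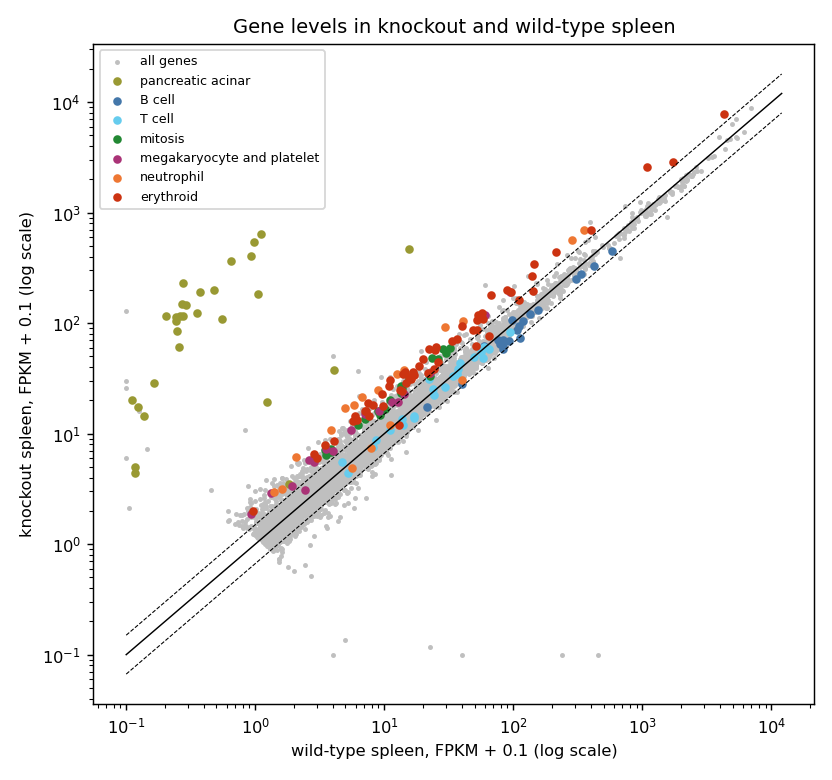
Level of each gene with a mean of at least 1 FPKM in wild-type (x axis) and knockout spleen (y axis), as pooled FPKM + 0.1 on log scales. The solid line marks equal levels and the dashed lines a difference of 1.5 times. Erythroid, neutrophil, megakaryocyte and mitosis genes lie above the upper dashed line for the most part, B and T cell genes lie near the solid line, and the pancreatic acinar genes lie far above it.

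The markers of spleen cells were present in both genotypes. *Cd3e*, a chain of the T cell receptor complex, had 23.8 and 25.3 FPKM in wild-type and knockout spleen, *Cd79a* of the B cell receptor 420 and 331 FPKM, and *Spic*, the transcription factor of red pulp macrophages, 54.6 and 54.4 FPKM. Genes of another organ were also present. Of 38 listed pancreatic acinar genes 36 were in the table and 29 reached a mean of 1 FPKM. All 29 were higher in knockout spleen, 24 of them being under 1 FPKM in wild-type, and the summed level of the list was 29.8 FPKM in wild-type and 4622 FPKM in knockout spleen, or 0.946% of the knockout total. *Ctrb1*, which encodes chymotrypsinogen, had 1.003 and 635 FPKM. No pancreatic endocrine gene of 9 reached a mean of 1 FPKM. The hepatocyte gene *Alb* went the other way, with 4.85 FPKM in wild-type and 0.0366 FPKM in knockout spleen. The part of these transcripts in the differences described here was not tested. With both genotypes rescaled without the acinar, immunoglobulin and globin genes, 632 genes were higher and 146 lower.

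Genes of red cell formation were higher in knockout spleen in each of the 5 lists. Of their 61 genes in the table, 58 reached a mean of 1 FPKM, and 53 of these were more than 1.5 times higher and none more than 1.5 times lower, with a median change of 1.06. All 53 differed by less than 3 times. The 4.91% of all genes that were higher is the background for these counts and for the later counts of higher genes in spleen. For genes more than 1.5 times lower it is 1.1%. List medians stand beside the median change of all genes, -0.02. In bulk tissue, more cells of a type and more RNA per cell cannot be told apart.

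Among the regulators, 8 of 9 were higher, with a median change of 1.06. *Klf1*, the erythroid Krüppel-like factor, had 13.8 FPKM in wild-type against 34.8 FPKM in knockout spleen. *Tal1*, which acts with GATA factors in erythroid cells, had 7.35 and 18.7 FPKM, and *Gata1*, the master regulator of erythroid and megakaryocyte genes, 8.01 and 18.2 FPKM. *Gfi1b*, a repressor needed in the same lineages, had 5.59 and 12.9 FPKM. *Epor*, the erythropoietin receptor, had 7.52 and 14.3 FPKM. The transferrin receptor gene *Tfrc*, through which precursors take up iron, had 33.6 and 68.5 FPKM. *Lmo2*, a partner of TAL1 that other cells also express, had 65.1 and 75.8 FPKM and stayed within the limit.

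The enzymes and carriers of heme synthesis formed the next group, 12 of 13 being higher with a median change of 0.93. *Alas2*, the erythroid form of the first enzyme, had 212 FPKM in wild-type against 437 FPKM in knockout spleen, a change of 1.04. The annotated *Apex2* gene overlaps it on the other strand, so reads may be shared. *Alas1*, the form used outside erythroid cells, had 12.8 and 11.9 FPKM, a change of -0.11. The erythroid form was thus higher and the general form was not. *Cpox*, which acts further along the pathway, had a change of 1.15. *Fech*, which inserts the iron, went from 36.5 to 71.4 FPKM, and *Slc25a37*, the mitochondrial iron importer, from 48.2 to 86.3 FPKM.

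Of 9 globin genes in the table, 6 reached a mean of 1 FPKM and all 6 were higher, 1 of them (*Hbq1a*) passing the mean only through its knockout level. *Hba-a1* had 1087 FPKM in wild-type against 2599 FPKM in knockout spleen, *Hbb-bs* 4308 and 7819 FPKM, and *Hbb-bt* 1734 and 2866 FPKM. The globin genes are near-identical pairs, so reads may have been divided between them. The embryonic genes stayed low, with *Hbb-y* at 0.0220 and 0.266 FPKM and *Hbb-bh1* at 0.274 and 0.324 FPKM. The sum of the list made up 1.58% of the wild-type and 2.86% of the knockout total.

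All 17 genes of the red cell membrane were higher, from a change of 0.90 for *Epb4.1* to 1.45 for *Rhag*, with a median of 1.18. *Rhag*, the Rh-associated glycoprotein, had 11.03 FPKM in wild-type against 30.4 FPKM in knockout spleen, which is 2.74 times higher. *Kel*, the Kell blood group protein, had 10.8 and 27.1 FPKM, *Ermap* 14.4 and 35.9 FPKM, and *Add2*, which caps actin in the membrane skeleton, 5.79 and 14.5 FPKM. *Slc4a1*, the anion exchanger band 3, had 88.7 and 201 FPKM. *Sptb*, which encodes a spectrin chain, had a change of 1.25. Of the genes of late erythroid cells, 10 of 13 were higher. *Car1*, a carbonic anhydrase, had 67.0 and 178 FPKM and *Hemgn* 22.2 and 58.6 FPKM. The members inside the limit were *Cat*, *Bnip3l* and *Blvrb*, which other cells express too, at changes of 0.28, 0.46 and 0.56.

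**Figure D2:**
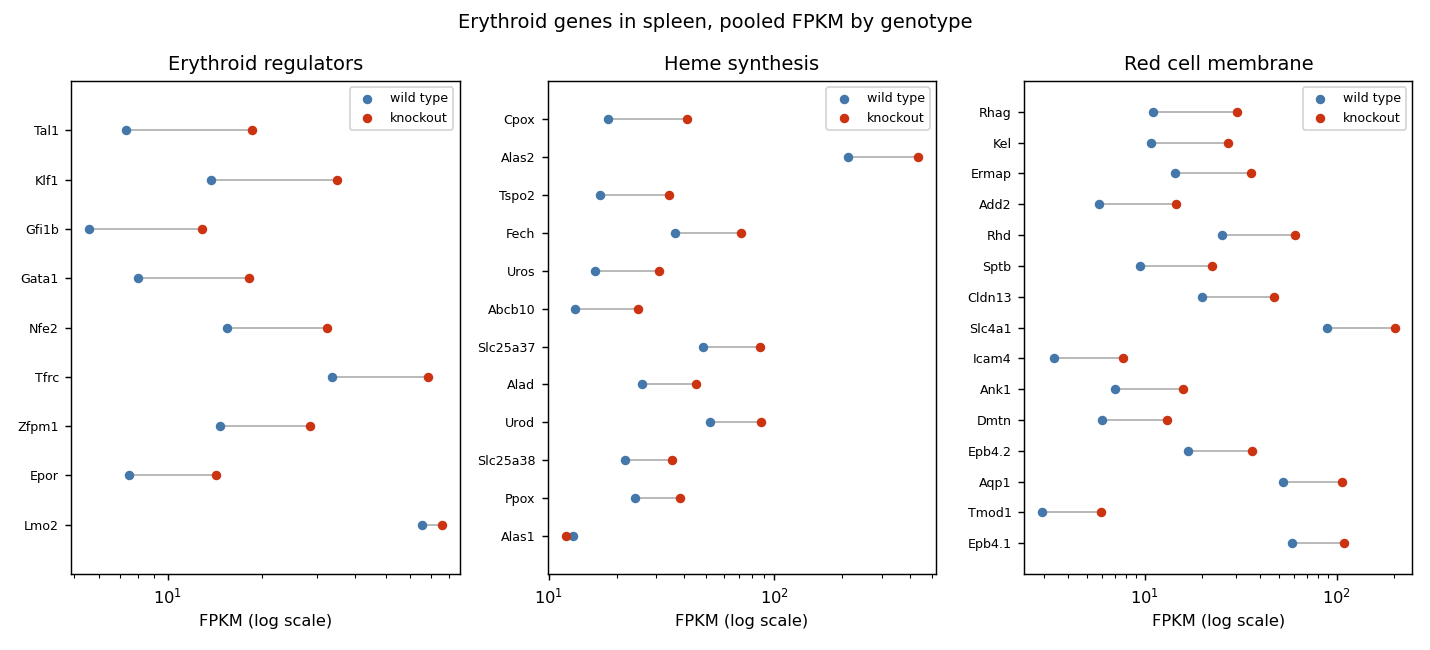
Pooled FPKM (log scale) of erythroid regulators, heme synthesis genes and red cell membrane genes in wild-type (blue) and knockout spleen (red), ordered within each panel by the change, smallest at the bottom. The knockout point lies to the right for every gene shown but *Alas1*, and the membrane genes have the most even spacing, from 0.90 to 1.45 on the log2 scale.

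Promoters of erythroid and granule genes are shown because most genes of both groups were higher in knockout spleen. Promoters were taken from RefSeq on GRCm38.p6, from 250 bases before to 50 after the start. The GATA motif was searched on both strands as the letters GATA after an A or T and before an A or G. It was found in 9 of the 11 red cell membrane promoters that could be matched, of 17 genes, against 30.2% of 27025 promoters. It was in 4 of 7 promoters of erythroid regulators, in 5 of 8 of globins, in 3 of 8 of late erythroid genes, in 2 of 10 of heme synthesis genes, in 6 of 13 of megakaryocyte genes, in 6 of 17 of neutrophil genes, in 3 of 19 of mitosis genes, in 4 of 16 of B cell genes and in 2 of 15 of T cell genes. An ETS motif bound by PU.1, GAGGAAGT on either strand, was in 6 of 17 neutrophil promoters against 3.28% of all, and the C/EBP motif TTGCNNAA in 8 of 17 against 10.8% of all. In T cell genes these were in 1 and 4 of 15, and in B cell genes in 2 and 3 of 16. A match is a description of the sequence and not a bound site. Every promoter printed below holds a match, so these promoters do not stand for their lists. The windows printed here run from 110 bases before to 10 bases after the start, on the strand of the gene, with matches in capitals: GATA motifs in the first 4 and the PU.1 motif in the last 2.
Rhag (chr17:40811039-40811158, plus strand): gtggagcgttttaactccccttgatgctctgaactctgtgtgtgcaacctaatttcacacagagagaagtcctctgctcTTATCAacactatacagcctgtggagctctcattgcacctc
Kel (chr6:41704316-41704435, minus strand): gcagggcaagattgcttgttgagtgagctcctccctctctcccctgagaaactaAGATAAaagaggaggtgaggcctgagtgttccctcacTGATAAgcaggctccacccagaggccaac
Klf1 (chr8:84901872-84901991, plus strand): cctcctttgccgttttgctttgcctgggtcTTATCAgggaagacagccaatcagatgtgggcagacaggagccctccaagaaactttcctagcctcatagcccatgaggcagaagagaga
Alas2 (chrX:150547307-150547426, plus strand): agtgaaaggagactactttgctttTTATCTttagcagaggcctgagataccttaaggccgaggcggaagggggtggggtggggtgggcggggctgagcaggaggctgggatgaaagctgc
Elane (chr10:79886202-79886321, plus strand): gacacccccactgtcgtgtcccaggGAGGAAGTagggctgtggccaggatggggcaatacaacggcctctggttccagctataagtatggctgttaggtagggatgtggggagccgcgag
Prtn3 (chr10:79879557-79879676, plus strand): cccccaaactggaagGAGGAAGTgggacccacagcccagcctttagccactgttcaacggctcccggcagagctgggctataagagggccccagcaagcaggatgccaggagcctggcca

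The GATA match begins 31 bases before the start in *Rhag*, 80 in *Klf1* and 86 in *Alas2*, each on the opposite strand, and *Kel* holds a pair on its own strand, 56 and 19 bases before the start. The PU.1 motif lies 85 bases before the start of *Elane* and 95 before that of *Prtn3*. *Elane* and *Prtn3* are neighbours on chromosome 10.

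Megakaryocyte and platelet genes were higher to a similar extent, 16 of 17 of them with a median change of 0.95. *Pf4* and *Ppbp*, chemokines stored in platelet granules, had 60.7 and 93.4 FPKM in wild-type and 118 and 193 FPKM in knockout spleen. *Gp6*, the collagen receptor of platelets, had 2.51 and 5.63 FPKM. *Selp* passed the mean only through its knockout level. *F5*, coagulation factor V, had a change of 0.33 and stayed within the limit.

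Neutrophil genes had the highest median change of the blood cell lists, 1.39, with 14 of 18 more than 1.5 times higher, but their changes were uneven. The 4 primary granule genes, made in early precursors, had a median change of 1.64. *Mpo*, or myeloperoxidase, had 4.86 FPKM in wild-type against 17.1 FPKM in knockout spleen, 3.48 times higher. The serine proteases *Elane*, *Prtn3* and *Ctsg* had 6.67, 5.70 and 3.79 FPKM in wild-type and 21.2, 17.9 and 10.8 FPKM in knockout spleen. The 4 secondary granule genes *Ngp*, *Ltf*, *Lcn2* and *Camp* had a median change of 1.45. *Ngp* had 29.7 and 91.4 FPKM, and *Camp*, the cathelicidin gene, 40.7 and 105 FPKM. *S100a8* and *S100a9*, which later cells also express, had changes of 0.99 and 0.98. The last class, *Csf3r*, *Cxcr2*, *Mmp9* and *Retnlg*, had a median change of -0.15. It held exactly the 4 listed genes that were not past the limit. The other listed genes, *Ly6g* and *Mmp8* among them, are in none of the 3 classes, and all were among the 14 higher genes. *Csf3r*, the G-CSF receptor, had 10.96 and 11.8 FPKM, *Cxcr2*, the receptor with which mature cells enter tissues, 7.72 and 7.25 FPKM, *Mmp9* 5.55 and 4.75 FPKM, and *Retnlg* 40.1 and 30.4 FPKM. These 3 classes were formed after the values had been seen, so the match of the last class with the limit was no test.

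**Figure D3:**
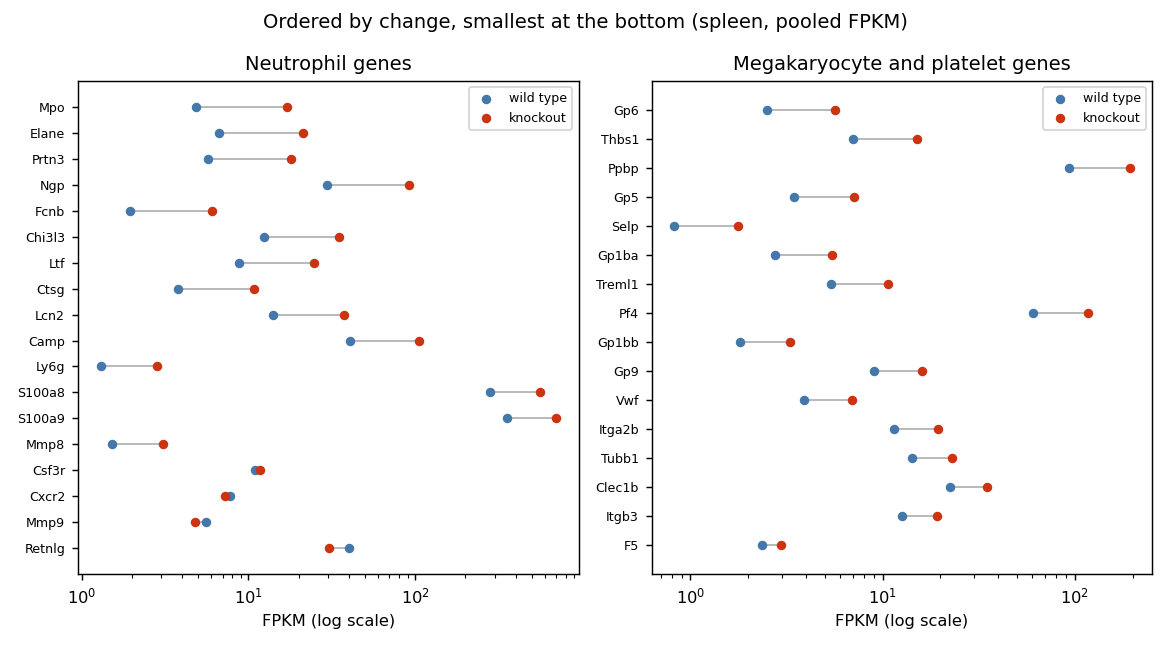
Pooled FPKM (log scale) of neutrophil genes (left) and megakaryocyte and platelet genes (right) in wild-type (blue) and knockout spleen (red), ordered by the change with the largest at the top. Granule genes from *Mpo* to *Camp* lie furthest apart, while *Csf3r*, *Cxcr2*, *Mmp9* and *Retnlg* at the bottom lie close together or in the other order.

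Other granulocyte genes were few. Of 6 mast cell, basophil and eosinophil genes that reached the mean, 3 were higher, 2 of which passed it only through the knockout level. *Mcpt8*, a basophil protease, had 0.896 and 2.91 FPKM, *Epx*, eosinophil peroxidase, 0.999 and 2.14 FPKM, and *Prg2*, the eosinophil major basic protein, 34.8 and 56.8 FPKM. *Ccr3*, the eotaxin receptor of mature eosinophils, had 16.6 and 13.8 FPKM.

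Genes of dividing cells were higher as well. Of 22 mitosis genes, 21 were more than 1.5 times higher, with a median change of 0.86, and *Cenpa* at 0.57 was just inside the limit. *Mki67*, the gene of the proliferation marker Ki-67, had 28.6 FPKM in wild-type against 58.6 FPKM in knockout spleen, and *Birc5*, or survivin, 23.2 and 48.0 FPKM. DNA replication genes followed with 14 of 19 and a median of 0.65. *Rrm2*, the subunit of ribonucleotide reductase made in S phase, had 27.8 and 59.0 FPKM, and *Cdc6*, which loads the replicative helicase, 5.56 and 11.97 FPKM. *Pcna* had a change of 0.48, and *Gins2* of 0.09.

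The lymphoid lists lay near or below equality. B cell genes had a median change of -0.28, and 18 of 20 were lower in knockout spleen, but 1 of 20 was past the limit, beside 1.1% of all genes. This was *Fcer2a*, or CD23 of follicular B cells, with 112 and 73.5 FPKM. *Ms4a1*, which encodes CD20, had 334 and 276 FPKM, and *Pax5*, the factor that sets B cell identity, 83.2 and 62.0 FPKM. *Tnfrsf13c*, the receptor for the survival factor BAFF, had 83.2 and 58.4 FPKM. MHC class II genes, which B cells share with other antigen-presenting cells, had 10 of 10 lower and none past the limit, with a median of -0.20. The 7 marginal zone genes had a median of -0.10. Germinal center genes went the other way, with 4 of 8 past the limit and a median of 0.56. *Rgs13*, a regulator of G protein signalling, had 2.71 and 5.44 FPKM.

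Plasma cell genes had a median change of 0.36, and 11 of 12 were above wild-type. Past the limit were 3 of them, *Creld2*, *Derl3* and *Fkbp11*, at 0.67, 0.65 and 0.63. These 3 genes serve protein folding and export, and acinar cells of the pancreas express them too. The part of acinar transcripts in their changes was not tested. In the same list *Sdc1* and *Mzb1* had changes of 0.02 and 0.09, and *Igj*, the joining chain of secreted antibodies, had 957 and 1243 FPKM. Of 9 antibody variable segments with a mean of at least 5 FPKM, 6 were more than 1.5 times higher. *Igkv1-115* had 101 and 219 FPKM and *Igkv4-71* 389 and 821 FPKM, while *Ighv6-5* had 76.1 and 69.1 FPKM and *Ighv6-4* 7.24 and 7.18 FPKM. Segments are similar in sequence and each clone uses its own, so single segments can differ from mouse to mouse. Of the constant regions, *Iglc2* had 1540 and 919 FPKM and *Ighg2c* 305 and 306 FPKM.

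None of 23 T cell genes was past the limit, and their median change was -0.04. *Cd4* had 33.96 FPKM in wild-type against 33.02 FPKM in knockout spleen and *Cd8a* 24.04 and 22.1 FPKM, so the markers of helper and cytotoxic cells were both close to equality. The widest changes were 0.50 for *Il7r*, the interleukin-7 receptor, and -0.29 for *Lef1*, a transcription factor of naive cells. Regulatory T cell genes had a median of -0.14, with *Foxp3* at 1.84 and 1.63 FPKM. Of 14 NK and cytotoxic genes none was past the limit, and *Ncr1*, the NK receptor NKp46, had 7.23 and 5.87 FPKM.

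Monocyte and macrophage genes were close to equality, with medians of 0.02 over 11 and 0.00 over 18 genes, unlike the neutrophil and erythroid genes. *Csf1r*, the receptor that both cell types need, had 125 and 127 FPKM. *Hmox1* and *Slc40a1*, with which red pulp macrophages break down heme and release iron, had 308 and 166 FPKM in wild-type and 307 and 159 FPKM in knockout spleen. Of the 18 macrophage genes 1 was past the limit, beside 4.91% of all genes. This was *Cd163*, the receptor for hemoglobin bound to haptoglobin, at 12.7 and 20.4 FPKM. Iron and heme handling genes had a median of 0.10, and 4 of 18 were higher, *Cd163* and *Tfrc* among them. Haptoglobin itself (*Hp*) had 8.19 and 12.6 FPKM, and *Steap3*, the iron reductase of erythroid cells, 3.32 and 7.56 FPKM. Dendritic cell genes had a median of -0.05, with *Itgax*, or CD11c, at 16.4 and 13.4 FPKM.

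**Figure D4:**
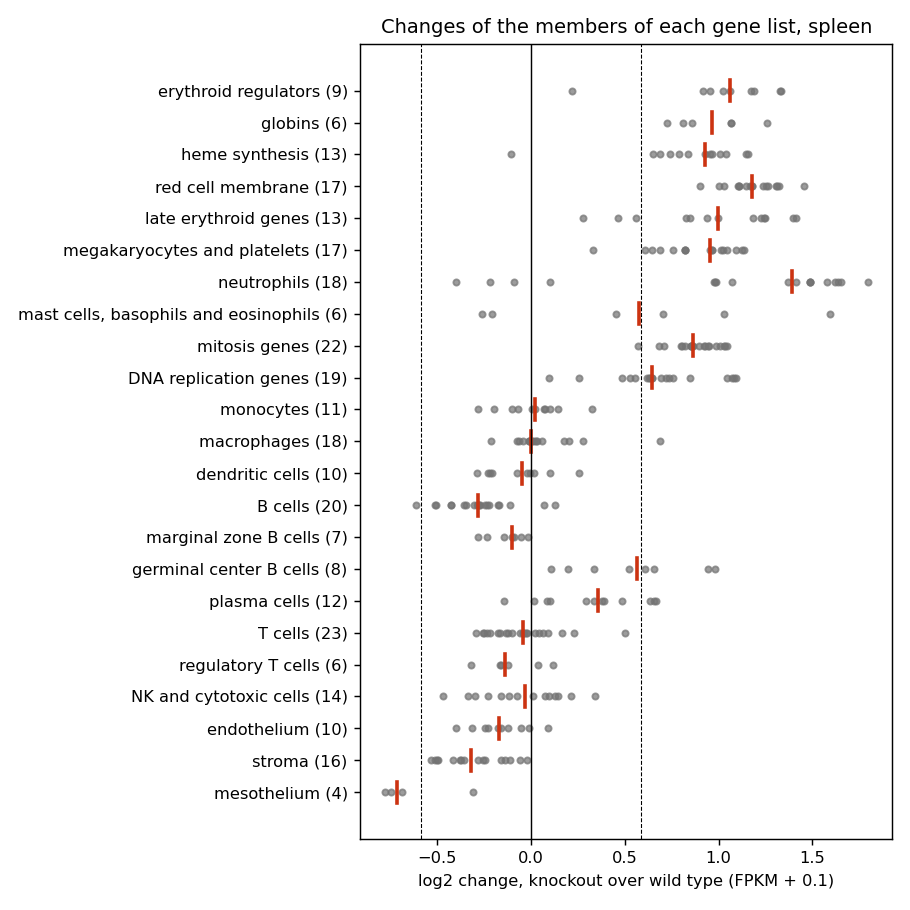
Log2 change of every member with a mean of at least 1 FPKM in 23 cell type and cell cycle lists (grey points, number of members in brackets) with the median (red bar). The dashed lines mark 1.5 times in each direction. The upper 10 lists lie mostly right of zero, neutrophil genes in separate clusters, and the monocyte, macrophage, T and NK lists are centred near zero.

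Genes of stroma and endothelium were lower on balance, and none was past the limit. All 16 stroma genes that reached the mean were lower, with a median of -0.32. *Cxcl13*, the chemokine that draws B cells into follicles, had 157 and 112 FPKM, *Pdgfrb* 8.998 and 6.20 FPKM, and *Tlx1*, a factor needed to form the spleen, 11.96 and 8.44 FPKM. Endothelial genes had a median of -0.17, with *Pecam1* at 52.9 and 45.0 FPKM. Of 4 genes of the mesothelium, the outer lining of the organ, 3 were past the limit, *Upk3b* at 5.89 and 3.48 FPKM, *Msln* at 5.76 and 3.54 FPKM and *Krt19* at 1.48 and 0.821 FPKM, the last passing the mean only through its wild-type level. The genes under that mean were *Krt8*, at 0.394 and 0.540 FPKM, and *Lrrn4*, at 1.15 and 0.731 FPKM. Adipocyte and skeletal muscle lists had 3 genes each at a mean of 1 FPKM, and *Tnnt3*, a muscle troponin at 1.37 and 0.880 FPKM, was the 1 past the limit, and it too passed the mean only through its wild-type level.

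Of the stress and response lists, heat shock genes had the highest median, 0.59, with 6 of 12 higher. *Hsph1*, a large chaperone of the HSP110 family, had 19.1 FPKM in wild-type against 55.4 FPKM in knockout spleen, and *Hsp90aa1* 148 and 229 FPKM. *Hspa1b*, the classic inducible HSP70, was low at 1.91 and 2.95 FPKM. Of 10 glucocorticoid-induced genes 4 were higher, with *Fkbp5*, a co-chaperone of the steroid receptor, at 14.8 and 30.4 FPKM and the metallothionein *Mt2* at 14.2 and 32.3 FPKM, while *Tsc22d3*, or GILZ, had 129 and 150 FPKM. Of 24 interferon-stimulated genes 2 were past the limit upward, *Rsad2* (15.3 and 35.6 FPKM) and *Isg15* (34.5 and 55.6 FPKM), and 1 downward, *Ifit3* (11.2 and 5.83 FPKM), beside 4.91% and 1.1% of all genes, while 16 of the 24 were below wild-type. *Fos* was the 1 of 24 immediate early genes past the limit, beside 1.1% of all genes, at 3.55 and 1.65 FPKM. Of the 24, 21 were below wild-type. Chaperones of the endoplasmic reticulum had 16 of 16 above wild-type but 1 past the limit, beside 4.91% of all genes. Chemokine, complement and clock genes had none past the limit, with medians of -0.11, -0.01 and -0.14.

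Among the genes with a mean of at least 5 FPKM outside the acinar list and the antigen receptor segments, the higher end held more genes known from the pancreas. *Tff2*, a secreted trefoil peptide of mucous and pancreatic cells (chr17:31141049-31144282), had 0.0262 and 15.9 FPKM, and *Pdia2*, the pancreatic protein disulfide isomerase (chr17:26195999-26199087), 0.727 and 10.8 FPKM. *Amy2a1*, pancreatic amylase, was listed at 0 in wild-type and had 25.7 FPKM in knockout spleen. *Rps4y2*, a copy of a ribosomal protein gene on chromosome 6, had 3.90 and 50.7 FPKM, and reads of its close copies may be assigned to it. *Fam132a*, which encodes a secreted hormone, had 6.22 and 22.0 FPKM. Predicted genes filled other places. *Gm21961*, *Gm17571* and *Gm17530* had 6.19, 60.2 and 9.39 FPKM in wild-type and 36.5, 220.1 and 32.6 FPKM in knockout spleen. *Gm10985* and *Gm17374* were listed at 0 in wild-type with 128 and 29.9 FPKM in knockout spleen, and *Gm17604*, *Gm17545* and *Gm3625* had 452, 237 and 39.7 FPKM in wild-type and were listed at 0 in knockout spleen. An exact 0 can be a failed estimate, so no fold is given for them. *Rps4y2*, *Gm17571*, *Gm17374*, *Gm17545* and *Gm3625* lie inside annotated genes on the other strand, so reads may be shared.

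At the lower end, apart from *Tug1* and its overlapping neighbour *Morc2a*, *Cyr61*, a matrix protein gene, had 14.6 FPKM in wild-type against 6.74 FPKM in knockout spleen. *Il1b*, the inflammatory cytokine, had 25.2 and 13.2 FPKM. *Klra4*, a Ly49 receptor of NK cells with close copies, had 8.38 and 4.19 FPKM, *Rapgef4*, an exchange factor activated by cyclic AMP, 7.87 and 4.07 FPKM, *Scand1* 7.90 and 4.38 FPKM, and *Gm11032* 670 and 388 FPKM. Genes on the other strand overlap *Rapgef4*, *Il1b*, *Scand1* and *Gm11032*, and the library kit does not keep the strand. Apart from *Tug1*, *Morc2a* and the genes listed at 0, the lower differences named by size were thus about 1.7 to 2.2 times.

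The same lists were measured in the 6 other tissues, which had their own wild-type samples. There the median change of red cell membrane genes lay between -0.14 and 0.13, that of heme synthesis genes between -0.09 and 0.05, that of megakaryocyte genes between -0.17 and 0.16 and that of mitosis genes between -0.20 and 0.35, against 1.18, 0.93, 0.95 and 0.86 in spleen. Of the 17 red cell membrane genes, from 1 in MEFs and 2 in liver to 10 in heart reached the mean there. Of the 13 heme synthesis genes, from 11 in MEFs to 13 in heart did. *Rhag* was under 0.1 FPKM in all 6 tissues. *Alas2*, which circulating red cells carry, had 630 and 512 FPKM in heart and 151 and 146 FPKM in liver, and was not past the limit in either, but in eye it went from 4.81 to 13.8 FPKM, a change of 1.498. *Pf4* was past the limit in eye, testes, prostate and liver too, with changes of 1.07, 0.74, 0.62 and 0.59. *Cd163* was past it in prostate, eye and heart, with changes of 1.30, 1.09 and 0.72. In liver its change was 0.49, and in testes and MEFs both its levels were under 1 FPKM. Neutrophil genes had positive medians in 4 of the 6 tissues, 1.06 over 5 genes in eye, 0.83 over 2 in prostate, 0.66 over 3 in liver and 0.53 over 3 in testes. They were at -0.38 over 6 genes in heart and at -0.40 for the 1 gene in MEFs. *Elane* was under 0.2 FPKM in each of the 6. Heat shock genes had a positive median change in all 7 tissues, between 0.06 and 0.57 outside the spleen. It was near equality in MEFs and testes, at 0.06 and 0.07, and no member was past the limit there or in eye. *Hsph1* went from 17.0 to 40.0 FPKM in liver, from 15.3 to 31.9 FPKM in prostate and from 13.9 to 28.8 FPKM in heart. It had 21.2 and 20.8 FPKM in testes, and was inside the limit in eye and MEFs at changes of 0.34 and 0.29. *Rps4y2* was past the limit in eye, heart, liver, MEFs and prostate as well, and had 83.0 and 87.0 FPKM in testes. Differences between tissues were not tested.

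**Figure D5:**
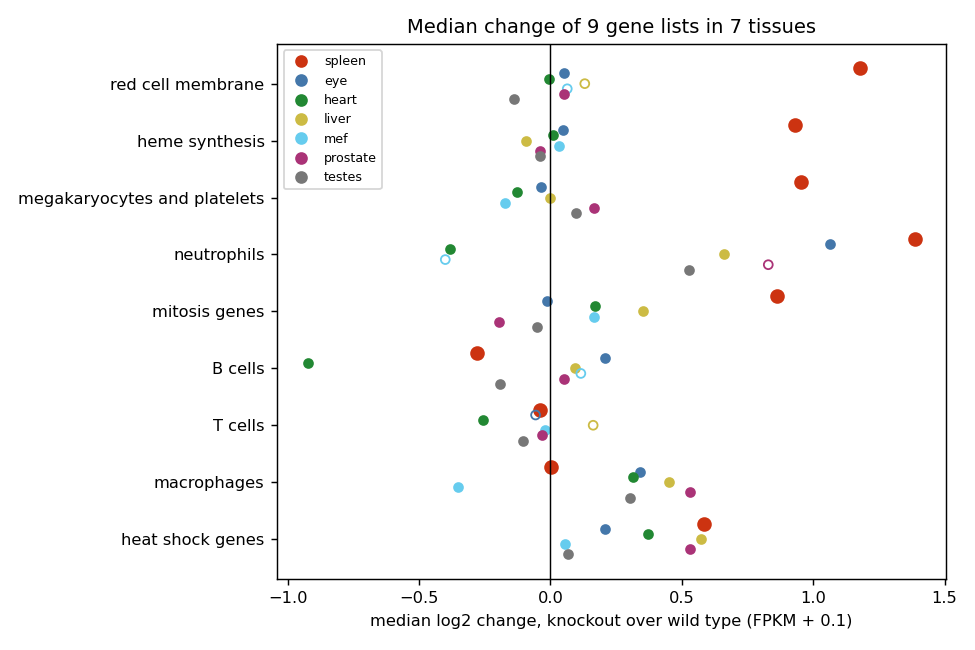
Median log2 change of 9 gene lists in 7 tissues (colours), over members with a mean of at least 1 FPKM in the tissue. Open points rest on fewer than 3 members. The spleen (large red points) lies right of the other tissues for the red cell membrane, heme synthesis, megakaryocyte, neutrophil and mitosis lists, and among them for B cell, T cell and macrophage genes.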

How the data were processed

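PolyA RNA of snap-frozen spleens had been extracted with TRIzol and made into libraries with the TruSeq kit v2. The submitters' processing notes name CASAVA 1.8.2, TopHat2, Cuffdiff and the build mm10, while the paper's methods describe another route. The authors deposited 1 FPKM value per genotype and tissue. Their columns of fold changes, test statistics, p-values, q-values and calls were not used here, nor was 1 of the 8 tissue comparisons, whose samples are not among those analysed here.

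Python 3.11.15 with pandas 2.3.3, numpy 2.4.6 and matplotlib 3.10.9 was used. Changes were log2 ratios with a pseudocount of 0.1, which understates the change of low genes. A gene was called higher or lower past 1.5 times, the limit the study used with a test near *Tug1*, if its mean was at least 1 FPKM. No test was possible. The steps were tested on simulated data. Positions come from GENCODE vM21, which held 25827 of the 26653 gene IDs. The members and lists were chosen with earlier results of these data known. The genes named are the 12 largest and 12 smallest changes with a mean of at least 5 FPKM, outside antigen receptor and acinar genes, the 4 largest changes of each list or its defining markers, *Tug1*, *lacZ*, and the 2 variable segments at each end. Other genes named were chosen after their values were seen. Some genes within this rule are not reported here singly and are left out of the plots of single genes.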

Additional observations from a re-analysis of the deposited data

How the results depend on the processing

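No paired analysis was possible because the table holds no value per sample, although the labels give both genotypes the same replicate numbers, and for the same reason no replicate could be left out. The counts of 620 higher and 139 lower genes became 955 and 533 with no filter on low values, 383 and 33 with a mean of at least 5 FPKM, and 211 and 29 with a limit of 2 times. With a pseudocount of 1 the lower genes fell to 55. Scaling both genotypes to the same sum, with or without the acinar, immunoglobulin and globin genes, centring on the median, a pseudocount of 0.01 and, chosen after the data were seen, leaving out genes listed at 0 kept both counts within 1.5 times. The median of the *Tug1* locus list turned from 0.63 to -0.42 with a mean of at least 5 FPKM, which leaves fewer genes. Of the other list medians, those of the acinar, hepatocyte and skeletal muscle lists moved by more than 1.5 times under a pseudocount or filter. Among the genes named, *Fkbp11*, *Hp*, *Krt19*, *Msln*, *Mybl1*, *Nuggc* and *Tnnt3* came inside the limit with a pseudocount of 1. *Hspd1* did so when both genotypes were scaled to the same sum over all genes, which put *Ifit2* past it. Centring brought *Tnnt3* inside and put *Sdf2l1* past it. Depth is unknown, so no lowest measurable level can be given.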
